A study of Mus musculus with 3 samples.

Results

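Aminoacyl-tRNA synthetases are the enzymes that join each amino acid to its transfer RNA. Their 36 genes described here were taken by symbol from tables of 23850 gene rows, and all 36 had an estimate in all 3 libraries. By their symbols, 20 encode cytosolic enzymes and the 16 whose symbol ends in 2 encode mitochondrial ones. RNA came from the livers of mice aged 16 weeks, after removal of ribosomal RNA. Ercc1 DR stands for Ercc1 delta/- mice under diet restriction. Ercc1 AL stands for Ercc1 delta/- mice fed ad libitum, and wt AL for wild-type mice fed ad libitum. All groups share the mixed C57BL6J/FVB background. The mutation is carried as one delta and one null allele of Ercc1, a gene of an endonuclease of nucleotide excision repair, and no tissue-specific driver is named. There was 1 library per group. Sex, and whether a library holds RNA of a single animal or a pool, are not given in the labels.

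Each synthetase recognises its own amino acid, activates it with ATP and transfers it to the matching tRNA, so together the enzymes set the fidelity of translation. Mitochondria translate their own few messages and import a separate set of synthetases encoded in the nucleus, whereas Gars and Kars each give rise to enzymes for both compartments. Many cytosolic synthetase genes are known targets of ATF4, the transcription factor that is translated when amino acids run short or the endoplasmic reticulum is stressed. The liver makes most plasma proteins and is a major site of amino acid breakdown.

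With 1 library per group, differences between groups carry no p-value and no SD. Levels are given in FPKM, a fragment count scaled by transcript length and library size, each deposited with a lower and an upper bound. The bounds cover counting and assignment of fragments within a library, not the difference between animals. For the members, the half-width of the bounds as a share of their midpoint had a median of 7.94% in Ercc1 DR, 8.18% in Ercc1 AL and 10.6% in wt AL. The libraries differed in their general level. Over 9109 genes with at least 1 FPKM in every library, the median log2 FPKM ratio was 0.49 for Ercc1 AL over wt AL, 0.33 for Ercc1 DR over Ercc1 AL and 0.78 for Ercc1 DR over wt AL. A log2 ratio below is of FPKM + 0.1 after the median of those genes was set to 0, unless it is called as deposited, and its ± is the combined half-width of the deposited bounds on the log2 scale.

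The targeted gene, Ercc1, was at 0.475 FPKM in Ercc1 DR, 0.573 FPKM in Ercc1 AL and 0.461 FPKM in wt AL. Its bounds overlapped between all libraries, so it does not check the labels. Hepatocyte markers were abundant in every library. Those 7 with an estimate of 8 summed to 7228 FPKM in Ercc1 DR, 3511 FPKM in Ercc1 AL and 2978 FPKM in wt AL, and albumin had no estimate in any library. These and the following sums are as deposited, before rescaling. After rescaling, the 7 hepatocyte markers had a median log2 ratio of -0.16 in Ercc1 AL over wt AL. Endothelial markers (7 of 7) summed to 11.7 FPKM in Ercc1 DR, 17.75 FPKM in Ercc1 AL and 18.6 FPKM in wt AL. Macrophage markers (7 of 8) summed to 13.6 FPKM in Ercc1 DR, 20.1 FPKM in Ercc1 AL and 15.8 FPKM in wt AL. Stellate markers (6 of 6) summed to 35.9 FPKM in Ercc1 DR, 30.8 FPKM in Ercc1 AL and 17.9 FPKM in wt AL. The sums of cholangiocyte markers were 2.09 FPKM in Ercc1 DR, 2.15 FPKM in Ercc1 AL and 3.47 FPKM in wt AL. Those of neutrophil markers were 3.03 FPKM in Ercc1 DR, 6.16 FPKM in Ercc1 AL and 8.27 FPKM in wt AL. No measured marker of hepatocytes, endothelium, macrophages, stellate cells, cholangiocytes or neutrophils was at 0. In bulk RNA, fewer cells of a type and less RNA per cell cannot be told apart.

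Synthetase transcripts spanned 2 orders of magnitude in FPKM. The cytosolic members ran from 2.57 to 29.0 FPKM in Ercc1 DR, from 1.80 to 25.7 FPKM in Ercc1 AL and from 1.29 to 33.6 FPKM in wt AL. Their medians were 6.70 FPKM in Ercc1 DR, 4.13 FPKM in Ercc1 AL and 2.64 FPKM in wt AL. The mitochondrial medians were lower in each library, at 2.33 FPKM in Ercc1 DR, 2.15 FPKM in Ercc1 AL and 1.54 FPKM in wt AL.

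Lars2, the mitochondrial leucine enzyme (mm10 chromosome 9, 123366940 to 123462664, plus strand), stood far above the rest of its compartment. It was at 63.8 FPKM in Ercc1 DR, 87.5 FPKM in Ercc1 AL and 60.1 FPKM in wt AL. The next mitochondrial member reached 8.44 FPKM in Ercc1 DR, 5.62 FPKM in Ercc1 AL and 4.18 FPKM in wt AL. The longest coding Lars2 transcript of GENCODE vM21, of 3894 bases, shares 72 bases at 98.6% identity with the noncoding gene Gm15564. It also shares a stretch of 97 bases at 94.8% identity with AA474408. The part of shared sequence in the Lars2 level was not tested.

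Eprs, which charges both glutamate and proline tRNA from a single polypeptide, had the highest cytosolic level. It was at 29.0 FPKM in Ercc1 DR, 25.7 FPKM in Ercc1 AL and 33.6 FPKM in wt AL. The deposited FPKM of Eprs and Lars2 lay above their own upper bounds in every library, as did Tars in Ercc1 DR, Hars in Ercc1 AL and Gars in both mutant libraries. At the low end, Pars2, the mitochondrial proline enzyme, was at 0.603 FPKM in Ercc1 DR, 0.654 FPKM in Ercc1 AL and 0.644 FPKM in wt AL, and its deposited bounds overlapped between libraries. Sars2, for mitochondrial serine, was at 0.689 FPKM in Ercc1 DR, 0.907 FPKM in Ercc1 AL and 0.765 FPKM in wt AL. Both stayed under 1 FPKM in all libraries and enter no count or median of members measured below, although the pairs of enzymes include them. Wars2, for mitochondrial tryptophan, passed 1 FPKM only in Ercc1 AL, and so is not counted in Ercc1 DR against wt AL.

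**Figure D1:**
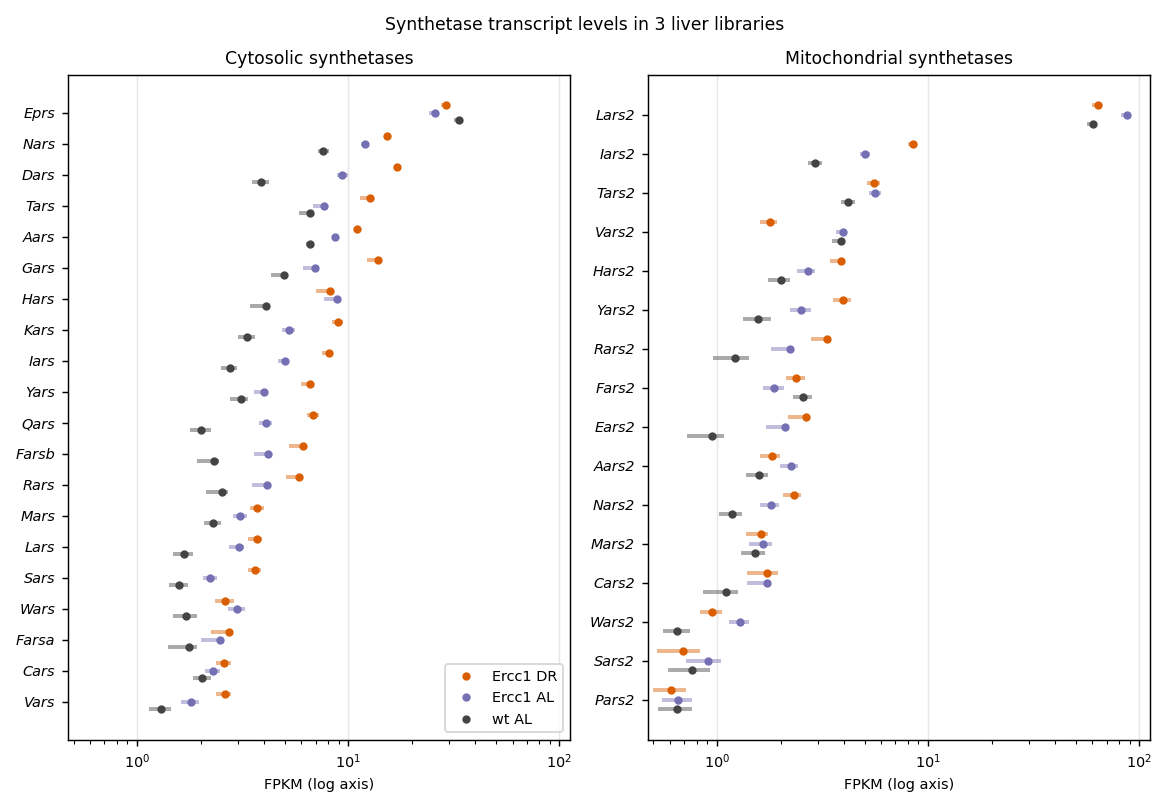
FPKM (log axis) of the 20 cytosolic and 16 mitochondrial synthetase genes, ordered by mean level, in Ercc1 DR, Ercc1 AL and wt AL. Points are deposited FPKM and bars the deposited bounds, with 1 library per group. Lars2 stands between 60.1 and 87.5 FPKM, and the lowest member, Pars2, between 0.603 and 0.654 FPKM.

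As deposited, 17 of the 20 cytosolic genes were highest in Ercc1 DR, intermediate in Ercc1 AL and lowest in wt AL. Only 6 of the 16 mitochondrial genes had that order, and 9 were highest in Ercc1 AL. The median gene had the same order. As deposited, 10010 of 12359 genes measured were higher in Ercc1 AL than in wt AL, against 19 of 20 cytosolic and 15 of 16 mitochondrial members. In Ercc1 DR over Ercc1 AL, 7539 of 12361 genes measured were higher, against 18 of 20 cytosolic and 7 of 16 mitochondrial members. The share of all genes with the full order was not counted. As deposited, 3 measured members were at least 2-fold above, and 0 below, in Ercc1 AL over wt AL, where 12.7% and 4.16% of all genes measured were. For Ercc1 DR over Ercc1 AL the counts were 0 and 1, against 9.85% and 15.3%, and for Ercc1 DR over wt AL they were 14 and 1, against 36.5% and 13.6%.

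Diet restriction within the mutant was addressed by Ercc1 DR against Ercc1 AL. After rescaling, 13 of 20 cytosolic and 6 of 14 measured mitochondrial genes had a log2 ratio above 0, where 44.8% of all genes measured did. None of 34 measured members was at least 2-fold higher and 1, Vars2, was at least 2-fold lower, where 4.25% and 20.9% of 12361 genes measured passed those thresholds (25.1% in either direction). At 1.5-fold, 1 member was higher and 4 were lower, against 13.1% and 30.6% of all genes measured. Deposited bounds lay apart, after rescaling, with 10 members higher and 9 lower in Ercc1 DR, while 29.6% and 38.2% of all genes measured did so.

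Vars2, the mitochondrial valine enzyme (mm10 chromosome 17, 35655635 to 35667592, minus strand), was at 1.77 FPKM in Ercc1 DR, 3.97 FPKM in Ercc1 AL and 3.86 FPKM in wt AL. As deposited, the restricted library stood apart as the low one, and the bounds of the freely fed libraries overlapped. After rescaling, Vars2 was also lower in Ercc1 AL than in wt AL, at a log2 ratio of -0.44 ± 0.13 with bounds apart. Its log2 ratio was -1.45 ± 0.17 in Ercc1 DR over Ercc1 AL and -1.84 ± 0.17 in Ercc1 DR over wt AL. The antisense gene Gm20483 covers 465 bases of its exons, 8.52% of their length, and whether fragments were counted by strand is not stated in the labels.

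Gars, the glycine enzyme of both compartments (mm10 chromosome 6, 55038001 to 55079504, plus strand), had the highest ratio in this comparison. It was at 13.8 FPKM in Ercc1 DR, 6.96 FPKM in Ercc1 AL and 4.98 FPKM in wt AL, with a log2 ratio of 0.64 ± 0.12 in Ercc1 DR over Ercc1 AL. Its log2 ratio in the freely fed mutant over wt AL was -0.01 ± 0.15, near the median of commonly expressed genes. Dars, for cytosolic aspartate (mm10 chromosome 1, 128363707 to 128417416, minus strand), was at 17.0 FPKM in Ercc1 DR, 9.38 FPKM in Ercc1 AL and 3.85 FPKM in wt AL. Its bounds did not overlap in any pair of libraries, before or after rescaling, and its log2 ratio was 0.52 ± 0.10 in Ercc1 DR over Ercc1 AL.

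The upstream sequences of these 3 genes are shown because they stand at the ends of the order, Vars2 lowest and Gars and Dars highest. Each line holds the 250 bases before the start of the gene in RefSeq (GRCm38.p6), read on the gene's strand. Capitals mark GGGCGG (the GC box, bound by SP1), CGCATGCG (the core of the site of NRF1, an activator of many nuclear genes for mitochondrial proteins) and TGATGNAA (the CARE, or C/EBP-ATF response element, bound by ATF4 with C/EBP partners), on either strand. Dars and Gars were added to the display after their values were seen.
Vars2, chr17:35667593-35667842, minus strand: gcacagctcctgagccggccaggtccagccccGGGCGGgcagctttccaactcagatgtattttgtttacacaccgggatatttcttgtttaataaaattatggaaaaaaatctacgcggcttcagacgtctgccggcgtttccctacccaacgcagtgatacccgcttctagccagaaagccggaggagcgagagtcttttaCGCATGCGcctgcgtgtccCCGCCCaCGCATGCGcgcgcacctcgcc
Dars, chr1:128417417-128417666, minus strand: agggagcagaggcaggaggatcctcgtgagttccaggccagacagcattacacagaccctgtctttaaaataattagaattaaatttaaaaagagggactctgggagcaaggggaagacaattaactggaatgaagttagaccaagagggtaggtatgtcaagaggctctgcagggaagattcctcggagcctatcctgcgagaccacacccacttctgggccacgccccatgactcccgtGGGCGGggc
Gars, chr6:55037751-55038000, plus strand: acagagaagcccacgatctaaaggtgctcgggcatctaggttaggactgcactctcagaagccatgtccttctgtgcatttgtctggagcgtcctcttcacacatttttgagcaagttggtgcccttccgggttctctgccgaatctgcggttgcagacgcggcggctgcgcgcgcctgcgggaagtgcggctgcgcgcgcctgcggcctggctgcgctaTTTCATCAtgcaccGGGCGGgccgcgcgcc

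Promoters in RefSeq, from 250 bases before to 50 after each start, were matched for 26 of the 36 members, 12 cytosolic and 14 mitochondrial. TGATGNAA on either strand occurred in 5 of the 12 cytosolic promoters and in none of the 14 mitochondrial ones, and in 3.97% of all 32851 promoters. The 5 were Aars, Gars, Iars, Tars and Yars, for alanine, glycine, isoleucine, threonine and tyrosine. Each line below gives, for 4 of them, 30 bases around the match on the gene's strand, with the match in capitals, to show how alike the element is between genes.
Gars, chr6:55037960-55037989, plus strand: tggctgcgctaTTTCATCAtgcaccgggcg
Iars, chr13:49682126-49682155, plus strand: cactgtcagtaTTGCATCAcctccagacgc
Tars, chr15:11399655-11399684, minus strand: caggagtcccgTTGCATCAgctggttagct
Yars, chr4:129189895-129189924, plus strand: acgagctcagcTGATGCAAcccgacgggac

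In the windows shown, all but Gars carry TTGCATCA or its complement read backwards, TGATGCAA, which lies on the gene's strand in Yars and on the other strand in Iars and Tars. The match begins 30 bases before the start in Gars and 15 in Tars, and just after the start in Iars and Yars. These 5 genes had, in Ercc1 DR over Ercc1 AL, a median log2 ratio of 0.39, with Aars lowest at 0.02 and Gars highest. The 7 cytosolic genes whose promoter held no match had a median of 0.36 and ran from -0.18 to 0.52, so the ranges overlapped. CGCATGCG occurred in 2 of the mitochondrial promoters, Vars2 with 2 matches and Wars2, in no cytosolic one and in 1.87% of all promoters. GGGCGG occurred in 11 of 14 mitochondrial and 8 of 12 cytosolic promoters, against 35.7% of all. The ETS core CCGGAAG occurred in 4 of 14 mitochondrial and 4 of 12 cytosolic promoters, against 8.86% of all. None of these matches overlapped a match of another motif searched, and a match is a string of letters, not evidence of binding.

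Other cytosolic genes whose restricted library lay above the freely fed mutant were Kars, Qars, Tars, Yars, Sars and Iars. Kars, the lysine enzyme of both compartments, was at 8.90 FPKM in Ercc1 DR, 5.23 FPKM in Ercc1 AL and 3.30 FPKM in wt AL. Qars, for glutamine, was at 6.82 FPKM in Ercc1 DR, 4.08 FPKM in Ercc1 AL and 2.0 FPKM in wt AL. Tars was at 12.7 FPKM in Ercc1 DR, 7.65 FPKM in Ercc1 AL and 6.59 FPKM in wt AL. The log2 ratios of these 6 genes ran from 0.35 to 0.43, and all 6 had bounds apart. Yars, for tyrosine, was at 6.59 FPKM in Ercc1 DR, 3.97 FPKM in Ercc1 AL and 3.09 FPKM in wt AL, and Sars, for serine, at 3.61 FPKM in Ercc1 DR, 2.21 FPKM in Ercc1 AL and 1.58 FPKM in wt AL. In Ercc1 AL over wt AL the log2 ratio was -0.27 for Tars, with bounds apart, and -0.13 for Yars, with overlapping bounds.

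Aars, Nars, Lars and Mars, for alanine, asparagine, leucine and methionine, followed the general level, with log2 ratios between -0.07 and 0.02 in Ercc1 DR over Ercc1 AL. Aars was at 11.1 FPKM in Ercc1 DR, 8.66 FPKM in Ercc1 AL and 6.58 FPKM in wt AL, and Nars at 15.3 FPKM in Ercc1 DR, 12.0 FPKM in Ercc1 AL and 7.62 FPKM in wt AL. Their bounds overlapped after rescaling between the mutant libraries. Aars shares 1326 exonic bases with Exosc6 on the same strand, 14.3% of its exonic length. Rars, Vars and Farsb, for arginine, valine and the beta chain of the phenylalanine enzyme, had log2 ratios from 0.18 to 0.21, also with overlapping bounds. Farsa, the alpha chain, had a log2 ratio of -0.18 ± 0.24, and Cars, for cysteine, one of -0.16 ± 0.17. Eprs had the same ratio as Cars, -0.16, with bounds apart.

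Wars and Hars were the cytosolic genes with the lowest ratios. Wars, the tryptophan enzyme and a known interferon-induced gene, was at 2.61 FPKM in Ercc1 DR, 2.97 FPKM in Ercc1 AL and 1.70 FPKM in wt AL, with a log2 ratio of -0.50 ± 0.20 in Ercc1 DR over Ercc1 AL. Hars, for histidine, was at 8.18 FPKM in Ercc1 DR, 8.85 FPKM in Ercc1 AL and 4.06 FPKM in wt AL, with a log2 ratio of -0.44 ± 0.14. Its mitochondrial counterpart Hars2 starts from the same stretch on the opposite strand and shares 195 exonic bases with it. Hars2 had a log2 ratio of 0.17 ± 0.18, so the head-to-head pair diverged by more than the bounds of either gene.

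Among mitochondrial genes, Lars2, Wars2 and Aars2 followed Vars2 at the low end. The log2 ratio of Lars2 was -0.79 ± 0.03. Wars2 was at 0.948 FPKM in Ercc1 DR, 1.29 FPKM in Ercc1 AL and 0.648 FPKM in wt AL, with a log2 ratio of -0.72 ± 0.23. Aars2, which charges alanine and proofreads the product, was at 1.82 FPKM in Ercc1 DR, 2.25 FPKM in Ercc1 AL and 1.57 FPKM in wt AL, with a log2 ratio of -0.61 ± 0.21. For all 3 the freely fed mutant was the highest library. Tars2 and Mars2, for threonine and methionine, had log2 ratios of -0.36 ± 0.13 and -0.35 ± 0.25. Mars2 had 1.61 FPKM in Ercc1 DR, 1.65 FPKM in Ercc1 AL and 1.52 FPKM in wt AL. Cars2, for cysteine, had 1.72 FPKM in Ercc1 DR, 1.73 FPKM in Ercc1 AL and 1.10 FPKM in wt AL. Its log2 ratio was -0.32 ± 0.31, with overlapping bounds.

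Iars2 and Yars2, for isoleucine and tyrosine, were the mitochondrial genes with bounds apart and higher. Iars2 was at 8.44 FPKM in Ercc1 DR, 5.03 FPKM in Ercc1 AL and 2.92 FPKM in wt AL, with a log2 ratio of 0.41 ± 0.11. It shares 2034 exonic bases with Rab3gap2 on the opposite strand, 22.9% of its exonic length. Yars2 was at 3.94 FPKM in Ercc1 DR, 2.50 FPKM in Ercc1 AL and 1.56 FPKM in wt AL, with a log2 ratio of 0.31 ± 0.21. Rars2, Hars2, Nars2, Fars2 and Ears2 lay between -0.004 and 0.25 with overlapping bounds.

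**Figure D2:**
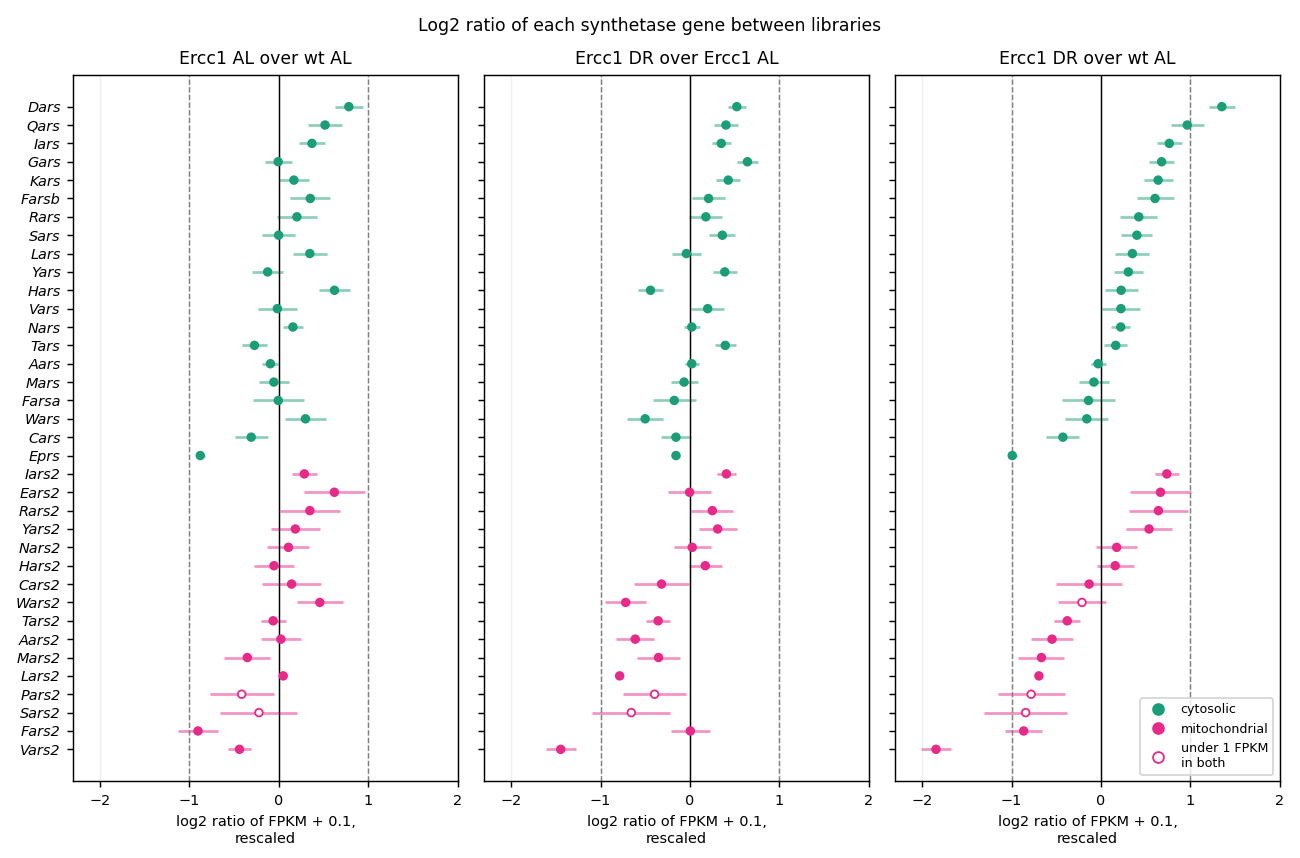
Log2 ratio of FPKM + 0.1 after rescaling for each of 36 synthetase genes, in Ercc1 AL over wt AL, Ercc1 DR over Ercc1 AL and Ercc1 DR over wt AL. Bars are the combined half-width of the deposited bounds, dashed lines mark 2-fold and open points are genes under 1 FPKM in both libraries. Vars2 lies left of the 2-fold line in both comparisons of Ercc1 DR, and Dars lies right of it in Ercc1 DR over wt AL.

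Genotype under free feeding was addressed by Ercc1 AL against wt AL, which shares the Ercc1 AL library with the comparison above. No measured member of 34 was at least 2-fold apart in either direction, where 3.68% of 12359 genes measured were higher and 8.29% lower. At 1.5-fold, 3 members were higher (10.9% of all genes measured) and 2 were lower (15.4%). Bounds lay apart with 10 members higher and 6 lower, against 24.1% and 27.6% of all genes measured. The median log2 ratio was 0.08 for the cytosolic members, 0.08 for the mitochondrial members and 0.01 for all genes measured.

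Dars had the highest log2 ratio of the members here, 0.78 ± 0.16. Hars, at 8.85 FPKM in Ercc1 AL and 4.06 FPKM in wt AL, had one of 0.62 ± 0.17. Ears2, the mitochondrial glutamate enzyme, had 2.63 FPKM in Ercc1 DR, 2.10 FPKM in Ercc1 AL and 0.944 FPKM in wt AL, with a log2 ratio of 0.62 ± 0.34. The bounds of all 3 lay apart. Qars, for cytosolic glutamine, was at 4.08 FPKM in Ercc1 AL and 2.0 FPKM in wt AL, with a log2 ratio of 0.52 ± 0.19. Of the members, 10 cytosolic and 9 mitochondrial ones lay above 0, against 50.9% of all genes measured. Wars2, Iars, Farsb, Lars, Iars2 and Nars also had bounds apart and higher, with log2 ratios from 0.16 to 0.46.

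Fars2 and Eprs had the lowest ratios. Fars2, the mitochondrial phenylalanine enzyme, had 2.36 FPKM in Ercc1 DR, 1.87 FPKM in Ercc1 AL and 2.55 FPKM in wt AL, with a log2 ratio of -0.90 ± 0.22. Nrn1, on the opposite strand, covers 501 bases of the exons of Fars2, 8.72% of their length. Eprs had a log2 ratio of -0.88 ± 0.05. These were the only members that were lower as deposited in the freely fed mutant than in wt AL. Vars2 (-0.44), Mars2 (-0.35), Cars (-0.31) and Tars (-0.27) had bounds apart and lower after rescaling, although their deposited FPKM was higher in Ercc1 AL than in wt AL.

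The restricted mutant was also set against wt AL, a comparison that shares a library with each of the others. Dars was the 1 member of 33 measured that was at least 2-fold higher, and Vars2 the 1 that was at least 2-fold lower, where 9.84% and 23.7% of 12127 genes measured passed. The log2 ratio of Dars was 1.35 ± 0.15, a 2.55-fold level. At 1.5-fold, 9 members were higher and 5 lower, against 22.2% and 31.5% of all genes measured. Bounds lay apart with 15 members higher and 8 lower, against 33.7% and 38.1%.

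Qars, with 6.82 FPKM in Ercc1 DR against 2.0 FPKM in wt AL, had a log2 ratio of 0.97 ± 0.19. Iars, with 8.13 FPKM in Ercc1 DR, 5.04 FPKM in Ercc1 AL and 2.76 FPKM in wt AL, had one of 0.76 ± 0.14, but its transcript shares 1656 bases at 96.0% identity with the pseudogene Gm4849. Iars2 was at 0.74 ± 0.13 on the same log2 ratio scale, and Gars at 0.68 ± 0.14. Ears2 (0.67), Rars2 (0.64), Kars (0.64) and Farsb (0.60) complete the members at least 1.5-fold higher. At the other end, Eprs had a log2 ratio of -0.99 ± 0.05, Fars2 one of -0.86 ± 0.21, Lars2 one of -0.69 ± 0.04 and Mars2 one of -0.67 ± 0.26. Eprs and Fars2 thus had low ratios over wt AL in both mutant libraries, but both ratios rest on the same wt AL library. The low ratio of Lars2 was seen only in the comparisons of the restricted library.

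Cytosolic and mitochondrial enzymes were then set against each other within each comparison. Gars and Kars, which serve both compartments, were counted as cytosolic by their symbols. Their log2 ratios in Ercc1 DR over Ercc1 AL were 0.64 and 0.43. In Ercc1 DR over Ercc1 AL the median log2 ratio was 0.19 for 20 cytosolic and -0.16 for 14 measured mitochondrial members, against -0.08 for all genes measured. Without Lars2 the mitochondrial median was -0.004. The gap turned round, to -0.06 in Ercc1 DR over Ercc1 AL and -0.16 in Ercc1 DR over wt AL, when all 19 members with an exon overlap or a stretch shared with another gene were left out, which kept 12 cytosolic and 3 measured mitochondrial members. In Ercc1 DR over wt AL the medians were 0.27 for 20 cytosolic and -0.13 for 13 mitochondrial members, or 0.01 for the mitochondrial ones without Lars2, against -0.05 for all genes measured. There, 14 cytosolic and 6 mitochondrial members lay above 0, as did 48% of all genes measured. In Ercc1 AL over wt AL the medians differed by less than 0.01. The ranges of the compartments overlapped in every comparison. Over members, Spearman's rho between mean FPKM and log2 ratio was 0.34 in Ercc1 DR over Ercc1 AL (34 genes of the same libraries), -0.0002 in Ercc1 AL over wt AL (34 genes) and 0.20 in Ercc1 DR over wt AL (33 genes).

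Markers of other cells moved to unlike degrees in Ercc1 DR over Ercc1 AL. Of these, 3 of 7 endothelial and 2 of 6 measured macrophage markers were at least 2-fold lower and none higher. Among all genes measured, 20.9% were at least 2-fold lower and 4.25% higher. The medians were -0.84 and -0.93 on the log2 ratio scale. Endothelial markers ran from -1.53 (Tek) to 0.29 (Lyve1), and macrophage markers from -1.10 to -0.32. The 3 measured stellate markers had a median of -0.10, ran from -0.83 to -0.003, and none was 2-fold apart. Of 2 measured neutrophil markers 1 was at least 2-fold lower, and the 1 measured cholangiocyte marker, Sox9, was at 0.47. Hepatocyte markers had a median of 0.73, with 2 of 7 at least 2-fold higher, and ran from -0.88 (Serpina1a) to 1.61 (Cps1). Their part in the synthetase values was not tested.

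Pairs of enzymes for the same amino acid allow a closer comparison, in 17 pairs, of which Eprs and Fars2 enter 2 each. By FPKM, the cytosolic gene was the more abundant in 15 pairs in Ercc1 DR, 15 in Ercc1 AL and 12 in wt AL. The cytosolic gene had, in Ercc1 DR over Ercc1 AL, the higher log2 ratio in 11 of 17 pairs, with a median difference of 0.20. It had the higher ratio in 12 of 17 pairs in Ercc1 DR over wt AL, where the median difference within pairs was 0.07. The valine pair differed most, by 1.64. Vars was at 2.61 FPKM in Ercc1 DR, 1.80 FPKM in Ercc1 AL and 1.29 FPKM in wt AL, so the order of the pair turned over. FPKM of Vars was 1.47 times that of Vars2 in Ercc1 DR, against 0.452 times in Ercc1 AL and 0.335 times in wt AL. The serine, threonine and leucine pairs differed by 1.02, 0.75 and 0.75 in the same direction, and the histidine pair by -0.61. The serine value rests on Sars2, under 1 FPKM in every library. The isoleucine, asparagine, arginine and tyrosine pairs differed by less than 0.09, and their cytosolic and mitochondrial genes thus had near-equal ratios. In Ercc1 AL over wt AL the cytosolic gene had the higher ratio in 9 of 17 pairs. The glutamate pair, Eprs with Ears2, differed most there, by -1.50, and Fars2 gave differences of 1.26 with Farsb and 0.90 with Farsa.

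**Figure D3:**
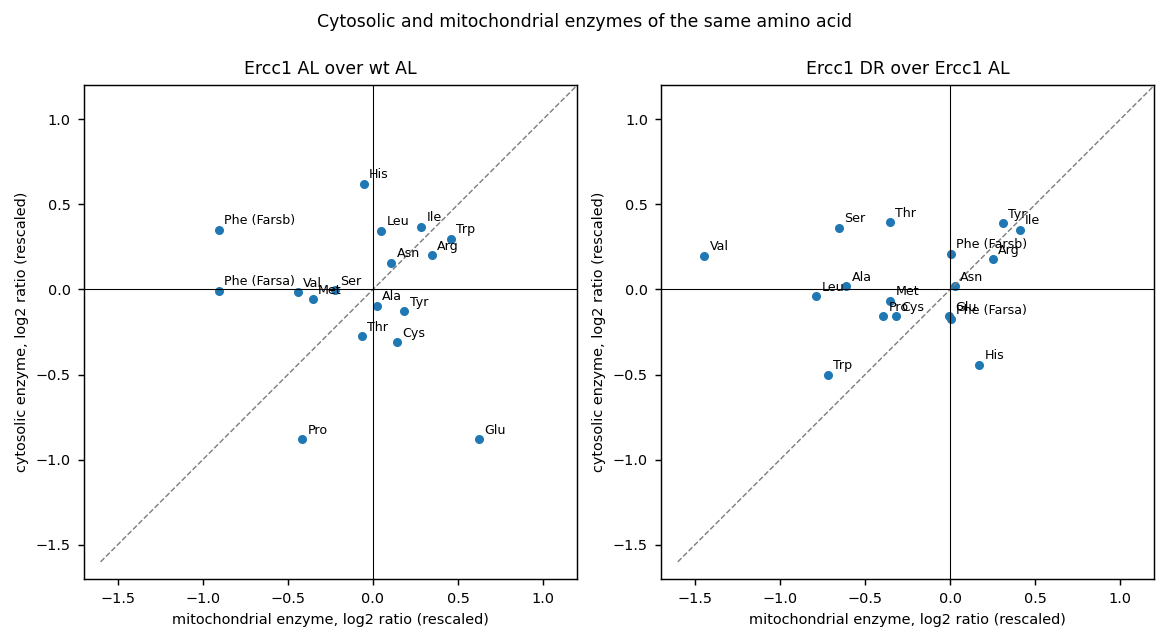
Log2 ratio (FPKM + 0.1, rescaled) of the cytosolic enzyme against that of the mitochondrial enzyme of the same amino acid, in Ercc1 AL over wt AL and Ercc1 DR over Ercc1 AL. Each point is a pair of genes, including those of Pars2 and Sars2 (under 1 FPKM), Eprs stands for both Glu and Pro, and the dashed line marks equal ratios. Val lies farthest above the line in Ercc1 DR over Ercc1 AL (difference 1.64), and Glu farthest below it in Ercc1 AL over wt AL (difference -1.50).

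In animal cells 8 cytosolic synthetases, Eprs, Iars, Lars, Mars, Qars, Rars, Kars and Dars, sit in a multisynthetase complex held together by the scaffold proteins of Aimp1, Aimp2 and Eef1e1. The complex members in Ercc1 DR over wt AL had a median log2 ratio of 0.53 and the 12 other cytosolic genes one of 0.22. All genes measured had one of -0.05. The ranges overlapped, from -0.99 to 1.35 in the complex and from -0.43 to 0.68 outside it. The medians inside and outside the complex were 0.26 and 0.11 in Ercc1 DR over Ercc1 AL. In Ercc1 AL over wt AL they were 0.27 and -0.01. Within the complex, Dars, Qars, Iars and Kars were the highest and Eprs the lowest in Ercc1 DR over wt AL, so its subunits did not share a ratio. Aimp1 was at 5.93 FPKM in Ercc1 DR, 3.33 FPKM in Ercc1 AL and 1.88 FPKM in wt AL, and Eef1e1 at 4.69 FPKM in Ercc1 DR, 2.99 FPKM in Ercc1 AL and 1.51 FPKM in wt AL. Aimp2 was at 2.91 FPKM in Ercc1 DR, 1.72 FPKM in Ercc1 AL and 1.66 FPKM in wt AL. The 3 scaffold genes had log2 ratios of 0.85, 0.83 and 0.03 in Ercc1 DR over wt AL, in that order of mention. None was 2-fold apart in any comparison. Of all genes measured, 12% were in Ercc1 AL over wt AL, 25.1% in Ercc1 DR over Ercc1 AL and 33.6% in Ercc1 DR over wt AL.

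Synthetases fall into a pair of structural classes with unrelated catalytic folds. The median log2 ratio in Ercc1 DR over Ercc1 AL was -0.04 for 19 class I and 0.03 for 15 measured class II members. In Ercc1 AL over wt AL it was 0.18 for 19 class I and -0.003 for 15 class II members. The classes thus differed by less than the spread among their members.

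A list of 12 cytosolic synthetases that respond to ATF4 was drawn from general knowledge and holds Aars, Cars, Eprs, Gars, Iars, Lars, Mars, Nars, Sars, Tars, Wars and Yars. They had median log2 ratios of 0.02 in Ercc1 DR over Ercc1 AL and -0.03 in Ercc1 AL over wt AL. The 8 other cytosolic members had medians of 0.20 in Ercc1 DR over Ercc1 AL and 0.28 in Ercc1 AL over wt AL, and the ranges of the lists overlapped. Of 28 amino acid response genes outside the family, 17 were measured in each comparison. None was, in Ercc1 DR over Ercc1 AL, at least 2-fold higher and 1, Ddit3, was lower, against 4.25% and 20.9% of all genes measured. Ddit3 encodes a stress-induced transcription factor, and its gene also overlaps Mars by 68 exonic bases on the opposite strand. Ddit3 had 3.25 FPKM in Ercc1 DR, 5.44 FPKM in Ercc1 AL and 3.23 FPKM in wt AL. Xpot, the exportin that carries tRNA out of the nucleus, had the highest ratio of that list. It was at 13.1 FPKM in Ercc1 DR, 6.67 FPKM in Ercc1 AL and 4.81 FPKM in wt AL, with a log2 ratio of 0.64 in Ercc1 DR over Ercc1 AL.

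In Ercc1 AL over wt AL, 1 of 17 measured amino acid response genes was at least 2-fold higher and 2 were lower. Among all genes measured, 3.68% were higher and 8.29% lower by that threshold. The median log2 ratio of the list was -0.38. Ddit4, an inhibitor of mTORC1 signalling, was at 2.17 FPKM in Ercc1 AL and 0.581 FPKM in wt AL. Fgf21, a fasting hormone, was at 0.932 FPKM in Ercc1 AL and 2.76 FPKM in wt AL, and the stress factor Atf3 at 1.23 FPKM in Ercc1 AL and 1.88 FPKM in wt AL. Atf4 itself, named after its values were seen, was at 15.1 FPKM in Ercc1 DR, 11.4 FPKM in Ercc1 AL and 11.8 FPKM in wt AL. Its log2 ratio was 0.06 in Ercc1 DR over Ercc1 AL and -0.53 in Ercc1 AL over wt AL. ATF4 is controlled largely at translation, which RNA levels do not show.

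Other genes of translation were counted the same way. Of cytosolic elongation factors, 7 of 8 were measured, and all 7, the scaffold gene Eef1e1 among them, had a log2 ratio above 0 in Ercc1 DR over Ercc1 AL, against 44.8% of all genes measured, with a median of 0.37 and none 2-fold apart. Eef1b2, which reloads the factor that delivers charged tRNA to the ribosome, had the highest ratio of them, 0.88, with 39.8 FPKM in Ercc1 DR, 17.1 FPKM in Ercc1 AL and 11.3 FPKM in wt AL. Of mitochondrial translation factors, 14 were measured, 11 of them above 0, with a median of 0.15 and none 2-fold apart. Among all genes measured in that comparison, 4.25% were at least 2-fold higher and 20.9% lower. Gfm1, the mitochondrial elongation factor G1, had the highest ratio at 0.84, with 18.2 FPKM in Ercc1 DR, 8.05 FPKM in Ercc1 AL and 6.46 FPKM in wt AL. Their range, from -0.61 to 0.84, overlapped that of the mitochondrial synthetases, from -1.45 to 0.41.

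Genes for proofreading and for synthetase-like proteins had a median log2 ratio of -0.28 in Ercc1 DR over Ercc1 AL. Of the 9, 2 lay above 0, against 44.8% of all genes measured. Aarsd1, a free-standing editing domain that clears mischarged alanine tRNA, was at 8.99 FPKM in Ercc1 DR, 11.8 FPKM in Ercc1 AL and 10.9 FPKM in wt AL. It was at least 2-fold lower in Ercc1 DR over wt AL, at a log2 ratio of -1.05.

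**Figure D4:**
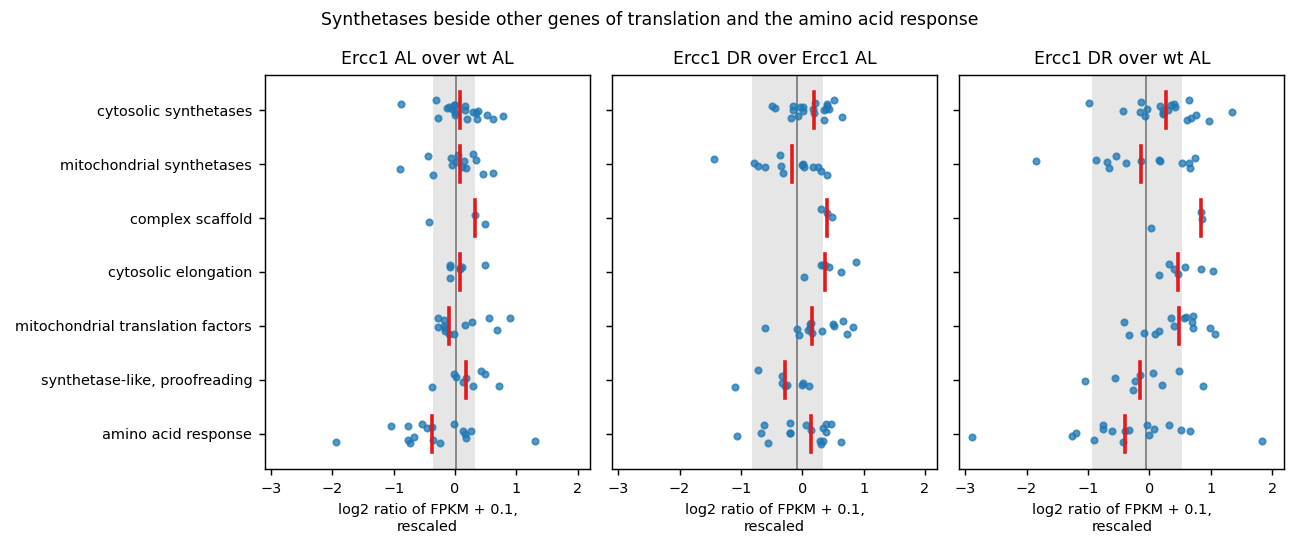
Log2 ratio (FPKM + 0.1, rescaled) of synthetase genes and of other gene lists, in Ercc1 AL over wt AL, Ercc1 DR over Ercc1 AL and Ercc1 DR over wt AL. Each point is a gene with at least 1 FPKM in either library, red lines are list medians, and the grey band and line are the quartiles and median of all genes measured. In Ercc1 DR over Ercc1 AL the cytosolic synthetases have a median of 0.19 and the mitochondrial ones -0.16.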

How the data were processed

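Liver RNA of 3 libraries was analysed, assigned to groups by their titles. The authors deposited FPKM per gene with bounds and a status code, per the file headers. Reads were placed on mm10, per the submitters' processing notes. Aligner, quantifier and annotation: not given in the sources used here. Depth is unknown. Rows with status HIDATA or FAIL were treated as missing. The reference library was multiplied so that the median log2 FPKM ratio of commonly expressed genes was 0. Genes with at least 1 FPKM in either library were measured, and a call is a ratio of FPKM + 0.1 of at least 2-fold. Scripts ran in Python 3.11.15 with pandas 2.3.3 and were checked on simulated data. Exon overlaps come from GENCODE vM21 (mm10), shared sequence from BLAST 2.17.0, promoters from RefSeq GRCm38.p6. Any member could be named. Values in all libraries were required for members 2-fold apart, for the highest and lowest 5 by ratio in the diet and genotype comparisons and by level, and for the pairs compared. The members, lists and motifs were chosen with earlier results of these data known. Some items are not reported here.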

Additional observations from a re-analysis of the deposited data

How the results depend on the processing

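Each of 15 results, the counts of members at least 2-fold apart and the medians by compartment in 3 comparisons, was recomputed under 6 other settings and, added after seeing the data, without Lars2, without 15 members (the 13 that overlap an exon of another gene, plus Iars and Lars2, picked by hand for shared stretches), and without all 19 with an exon overlap or a shared stretch. A pseudocount of 1, no filter on low values, the midpoint of the deposited bounds and leaving out Lars2 moved no count. They moved no median or gap by more than the median half-width of the bounds of its genes. For the mitochondrial median in Ercc1 DR over Ercc1 AL that half-width was 0.22, wider than the median of -0.16, so a change that removed it would not have counted. Leaving out Lars2 took that median to -0.004 and the gap there from 0.35 to 0.19, and no filter took the gap to 0.52. As deposited, without rescaling, the counts of members at least 2-fold higher were 3 in Ercc1 AL over wt AL and 14 in Ercc1 DR over wt AL. The cytosolic medians were then 0.56 in Ercc1 AL over wt AL, 0.51 in Ercc1 DR over Ercc1 AL and 1.03 in Ercc1 DR over wt AL. The mitochondrial medians were 0.55 in Ercc1 AL over wt AL and turned positive in Ercc1 DR over Ercc1 AL (0.16) and in Ercc1 DR over wt AL (0.60). Scaled to the sum of FPKM, 2 members were at least 2-fold higher in Ercc1 DR over wt AL. At 5 FPKM or more, no member was 2-fold lower in either comparison of Ercc1 DR, since Vars2 was left out. The cytosolic median was then 0.35 in Ercc1 DR over Ercc1 AL, and the gap between compartments 0.71 there and 0.80 in Ercc1 DR over wt AL. Without the 15 or the 19 members, Vars2 among them, 0 were 2-fold lower in either comparison of Ercc1 DR, and the gap was 0.73 in Ercc1 DR over wt AL without the 15. Without the 19, with 3 measured mitochondrial members left, the mitochondrial median was 0.25 in Ercc1 DR over Ercc1 AL and 0.54 in Ercc1 DR over wt AL, and the gap turned to -0.063 in Ercc1 DR over Ercc1 AL and -0.16 in Ercc1 DR over wt AL; fewer genes were compared. No paired analysis was possible because each group has 1 library, and no library could be left out. The half-width of the deposited bounds of a member's log2 ratio ran from 0.03 to 0.47, and the spread between animals is not measured.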
